A study of Rattus norvegicus with 10 samples.

Results

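The 10 genes described here move monoamines and nucleosides across membranes or break monoamines down. They are the equilibrative nucleoside transporters Slc29a1, Slc29a2, Slc29a3 and Slc29a4, the organic cation transporter Slc22a3, the plasma membrane transporters of serotonin (Slc6a4) and noradrenaline (Slc6a2), the vesicular monoamine transporter Slc18a2, and the monoamine oxidases Maoa and Maob. The family was chosen from the array values of Slc29a4, which was among the genes with the largest increase in enteric glial cells that overexpressed SOX10, and the other 9 members were added for their function. All 10 were measured, each by 1 transcript cluster (the set of probes that reads a gene), among 15037 named genes and 23188 transcript clusters in all. Because the values of Slc29a4 with and without doxycycline selected the family, they are given as a description with no test. The other 9 genes were added with earlier results of these data known, and their values come from the same contrast.

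Signalling by serotonin, noradrenaline and dopamine ends when the transmitter is taken back into cells. SLC6A4 and SLC6A2 do this with high affinity and drive uptake with the sodium gradient, whereas SLC22A3 and SLC29A4, the plasma membrane monoamine transporter, take up monoamines with low affinity and high capacity outside the nerve terminals. SLC29A4 is a relative of SLC29A1 and SLC29A2, which let adenosine and other nucleosides pass the plasma membrane along their gradient, and SLC29A3 acts in intracellular membranes. In the gut wall, serotonin from the epithelium, noradrenaline from sympathetic fibres and adenosine formed from released ATP all reach the neighbourhood of enteric glia.

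JUG2 cells, an enteric glial cell line derived from a primary culture of the rat enteric nervous system, were transduced with lentiviral vectors and kept under puromycin as stable lines. All lines carried the doxycycline-dependent transactivator TET3G under the EF1a promoter, together with a doxycycline-responsive Sox10 or, in the control line, GFP. Cells were grown in DMEM with serum and either left untreated (SOX10 -dox, 4 arrays; GFP -dox, 1 array) or given 1 µg/ml doxycycline for 48 h (SOX10 +dox, 4 arrays; GFP +dox, 1 array). RNA came from 4 independent experiments and was hybridised to 10 Clariom S arrays. Each construct was studied in 1 line, and the GFP line had no replicate arrays.

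Sox10 itself, the gene that was overexpressed, checked the labels. Replicates 2, 3 and 4 had Sox10 signals (log2) of 6.39, 6.11 and 6.43 without doxycycline in the SOX10 line and of 12.93, 12.62 and 13.02 with it. Replicate 1 ran against its labels, with 12.90 on the -dox array and 6.74 on the +dox array. Whether these 2 arrays carry each other's labels was not tested, and each value given as labelled depends on it. GFP -dox gave 5.70 and GFP +dox 6.20. Comparisons were therefore made on replicates 2 to 4 (3 against 3 arrays), with the arrays labelled replicate 1 shown apart. Median signals of the 10 arrays lay between 6.69 and 6.86. Of 8 measured markers of enteric glia, 5 (Sox10 among them) were called higher in SOX10 +dox, and the mean level of the 8 was 6.22 to 6.43 in SOX10 -dox and 8.70 to 9.06 in SOX10 +dox. This mean includes the overexpressed Sox10 (difference 6.55) and Erbb3 (7.34), the largest differences of the list. The values of Sox10 also set the replicate 1 arrays apart, so its own call is a description and no test. Gfap (0.23), Sox2 (-0.10) and Fabp7 (0.01) were not called. None of the markers of neurons (7), macrophages (5), mast cells and platelets (5), endothelium (3) or fibroblasts and smooth muscle (4) were called in either direction. The last of these lists was at a mean level of 12.67 to 13.16 in SOX10 -dox and 12.11 to 12.59 in SOX10 +dox, with all 4 differences between -0.75 and -0.42 on the log2 scale; its part in the results below was not tested. The cultures were measured in bulk, so fewer cells of a type and less RNA per cell cannot be told apart.

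Slc29a4 had low signals in every untreated SOX10 array of replicates 2 to 4 and high signals in every treated one. The log2 signal was 4.50, 4.16 and 4.79 in SOX10 -dox (4.48 ± 0.31, SD, n = 3). In SOX10 +dox it was 13.15, 13.17 and 12.91 (13.08 ± 0.14, SD, n = 3). The groups did not overlap, and the lowest treated array lay 8.13 above the highest untreated one. The difference was 8.59 ± 0.23 (SE) on the log2 scale, a 387-fold difference between the signals, and it was 8.65, 9.01 and 8.13 in replicates 2, 3 and 4. On the arrays labelled replicate 1 the order was turned, as it was for Sox10: the array labelled SOX10 -dox gave 13.20 and that labelled SOX10 +dox 4.88, a difference of -8.32. With all 8 SOX10 arrays taken as labelled, the difference was 4.36 ± 2.16 (SE). The untreated signals lay under 6.77, the median of all values, and no background was given for them, so the fold describes the deposited signals and not an exact ratio of RNA.

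On the GFP arrays Slc29a4 had signals near those of the untreated SOX10 line. They were 5.10 in GFP -dox and 5.41 in GFP +dox, a difference of 0.31, and SOX10 -dox differed from GFP -dox by -0.61. The difference with doxycycline in the SOX10 line minus that in the GFP line was 8.28. Over all 10 arrays the signal of Slc29a4 spanned 9.04 on the log2 scale, whereas the other 9 genes each spanned between 0.74 and 2.37. The plot of the 10 genes by array shows this contrast.

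**Figure D1:**
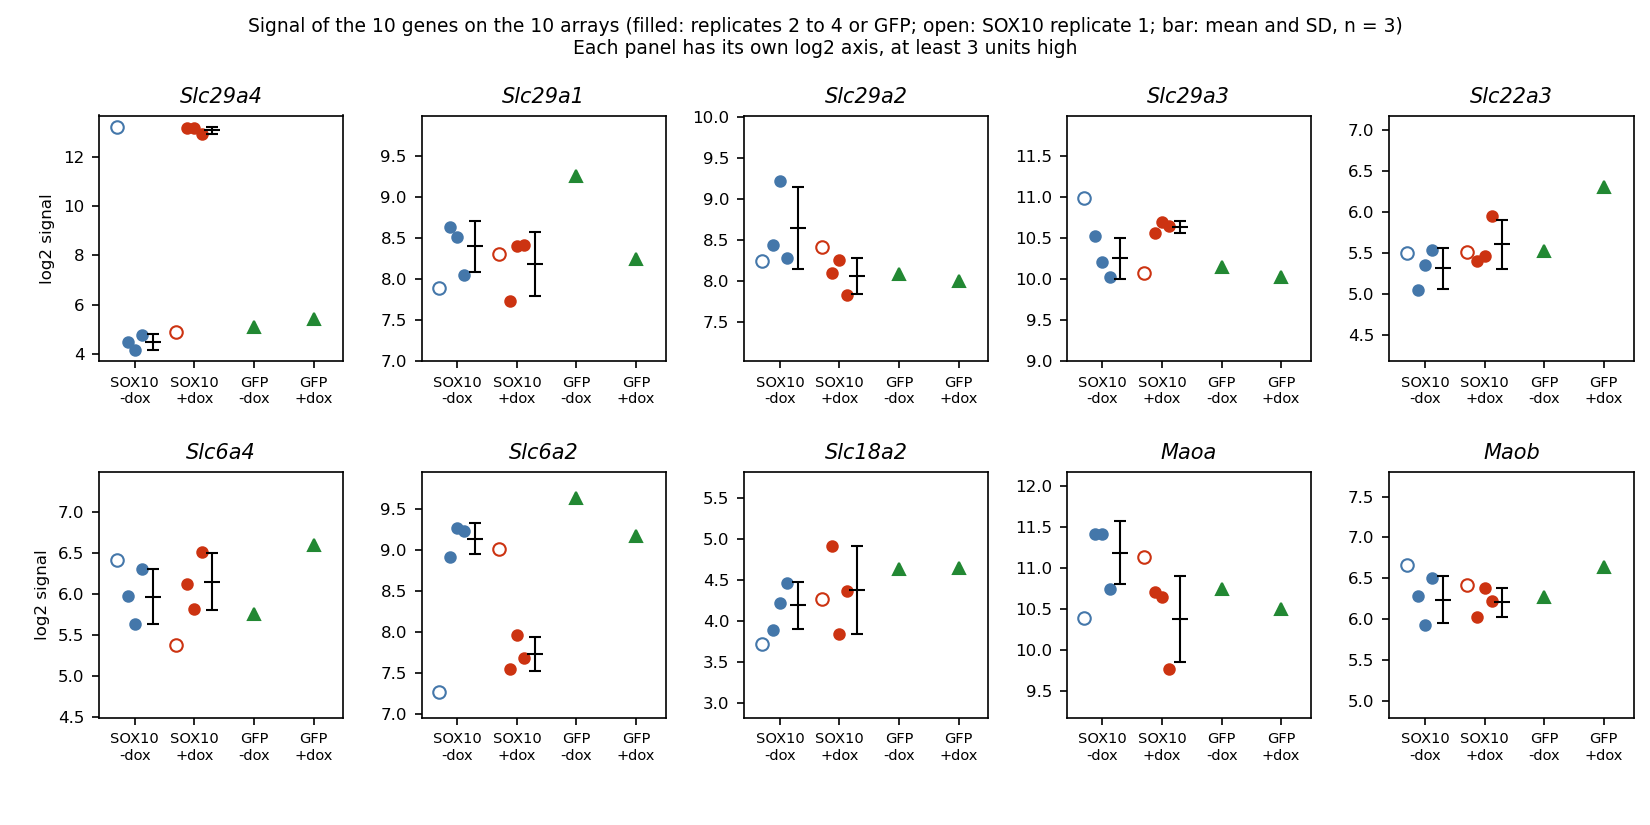
Log2 signal (vertical axes, one scale per gene) of the 10 genes on each array, by group (horizontal axes). Filled circles are SOX10 replicates 2 to 4, open circles the arrays labelled replicate 1 and triangles the GFP arrays, and bars give the mean ± SD of 3 arrays. Slc29a4 lies between 12.91 and 13.17 in SOX10 +dox and between 4.16 and 4.79 in SOX10 -dox, with both replicate 1 arrays on the side opposite to their label, and Slc6a2 shows the reverse order over a smaller range.

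Sequences upstream of transcription starts were taken from RefSeq (build GRCr8) for the 8 members with an entry (all except Slc6a2 and Slc6a4). The 250 bases before the start were searched on both strands for the letters ACAAAG and ACAATG, the core letters that SOX proteins are known to bind. Over 33469 promoters of the same length, ACAAAG was found in 16.3%, ACAATG in 11.1% and either in 25.3%. Of the 8 members, 2 held a match. The upstream sequence of Slc29a4, shown because its signal differed most, held neither. It lies on the minus strand at chr12:16988339-16988588, and the start it belongs to is 9938 bases into the annotated gene, so the window is inside the annotated gene. The upstream sequence of Slc22a3, another low-affinity monoamine transporter, lies on the plus strand at chr1:50782968-50783217 and held ACAAAG with its first base 230 bases before the start and ACAATG on the opposite strand (read as CATTGT) 130 bases before it. That of Slc29a2, on the plus strand at chr1:211757074-211757323, belongs to a start 736 bases into the annotated gene and held ACAAAG 125 bases before the start and, on the opposite strand (read as CTTTGT), 58 bases before it. Capitals mark the matches. A match describes the letters in the window only.
Slc29a4: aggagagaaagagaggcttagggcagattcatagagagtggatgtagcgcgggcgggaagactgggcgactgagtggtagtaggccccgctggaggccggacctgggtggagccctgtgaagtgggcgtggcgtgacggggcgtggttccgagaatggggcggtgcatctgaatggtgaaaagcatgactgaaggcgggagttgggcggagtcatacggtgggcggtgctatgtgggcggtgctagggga
Slc22a3: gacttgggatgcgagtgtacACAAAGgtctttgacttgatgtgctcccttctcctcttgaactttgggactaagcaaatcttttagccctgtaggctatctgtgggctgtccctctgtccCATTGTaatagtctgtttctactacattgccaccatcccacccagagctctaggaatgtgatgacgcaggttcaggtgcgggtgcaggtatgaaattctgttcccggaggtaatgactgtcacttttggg
Slc29a2: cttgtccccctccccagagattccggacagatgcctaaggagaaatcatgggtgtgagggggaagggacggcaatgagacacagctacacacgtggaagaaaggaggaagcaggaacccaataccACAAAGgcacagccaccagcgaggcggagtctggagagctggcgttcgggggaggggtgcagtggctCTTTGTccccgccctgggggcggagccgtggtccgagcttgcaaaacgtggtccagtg

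The comparison of SOX10 +dox with SOX10 -dox was read for the other 9 genes from a limma fit over all transcript clusters, with calls made where the adjusted p was below 0.05 and the signal changed 2-fold or more. Of the 9, 0 were called higher, 1 was called lower and 8 were not called. Among all 23188 transcript clusters 2.26% were called higher and 1.24% lower. The median difference of the 9 genes was -0.03 on the log2 scale, beside -0.02 over all transcript clusters. The SOX10 +dox and SOX10 -dox arrays did not overlap for 4 of the 9 genes (1 higher, 3 lower), beside 20% of all transcript clusters. The group means of Slc22a3, Slc6a4, Slc18a2 and Maob all lay under that median of 6.77, so 6 of the 10 genes passed a filter at that level, and Slc29a4 passed it only through SOX10 +dox.

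Slc6a2, the noradrenaline transporter, was the gene that fell. Its log2 signal was 8.92, 9.27 and 9.23 in SOX10 -dox (9.14 ± 0.19, SD, n = 3) and 7.55, 7.96 and 7.69 in SOX10 +dox (7.73 ± 0.21, SD, n = 3). Every treated array lay below every untreated one, by at least 0.96. The difference was -1.41 ± 0.22 (SE, 95% confidence interval -1.90 to -0.92), a 2.66-fold lower signal (limma adjusted p = 0.0048), and it was -1.37, -1.32 and -1.54 in replicates 2, 3 and 4. When each of the 6 arrays was left out in turn, it stayed between -1.52 and -1.32 (adjusted p 0.0105 to 0.032). The arrays labelled replicate 1 again ran the other way, with 7.27 on the one labelled SOX10 -dox and 9.01 on the one labelled SOX10 +dox. With these 2 arrays included as labelled, the difference was -0.62 ± 0.45 (SE) and the call was lost (adjusted p = 0.973).

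Slc6a2 in the GFP line was 9.64 without and 9.17 with doxycycline, a difference of -0.47. The difference with doxycycline in the SOX10 line minus that in the GFP line was -0.94 ± 0.45 (SE), which did not pass the interaction test (limma adjusted p = 0.572). The signal of SOX10 +dox replicates 2 to 4 lay below both GFP arrays.

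The remaining members of the equilibrative nucleoside transporter family did not pass the test. Slc29a1, the main plasma membrane carrier of adenosine, gave 8.63, 8.51 and 8.05 in SOX10 -dox and 7.73, 8.40 and 8.42 in SOX10 +dox. These groups overlapped, and the difference was -0.22 ± 0.27 (SE, 95% confidence interval -0.80 to 0.37; adjusted p = 0.793), with signs that differed between replicates (-0.90, -0.11 and 0.37). Its highest signal of all was 9.26 in GFP -dox, against 8.24 in GFP +dox, a single-array difference of -1.02.

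Slc29a2, a nucleoside and nucleobase carrier, gave 8.44, 9.21 and 8.27 in SOX10 -dox and 8.09, 8.25 and 7.82 in SOX10 +dox. The treated arrays all lay lower, with the nearest arrays 0.03 apart before rounding, and the difference of -0.59 ± 0.28 (SE, 95% confidence interval -1.19 to 0.02) did not pass (adjusted p = 0.357). Slc29a3, the intracellular member of the family, gave 10.52, 10.21 and 10.02 in SOX10 -dox and 10.56, 10.70 and 10.65 in SOX10 +dox. Its treated arrays all lay higher, by as little as 0.04, with a difference of 0.39 ± 0.22 (SE, 95% confidence interval -0.10 to 0.87; adjusted p = 0.474).

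The array labelled SOX10 -dox replicate 1 held the highest Slc29a3 signal of all 10 arrays (10.99), and that labelled SOX10 +dox replicate 1 gave 10.07, near the untreated arrays. For Slc29a2 these arrays gave 8.24 and 8.41. In the GFP line, doxycycline differences were -0.08 for Slc29a2 and -0.12 for Slc29a3.

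Slc22a3, which like Slc29a4 takes up monoamines with low affinity, had signals of 5.05, 5.35 and 5.54 in SOX10 -dox and 5.40, 5.47 and 5.95 in SOX10 +dox. The groups overlapped, and the difference of 0.30 ± 0.24 (SE, 95% confidence interval -0.24 to 0.83) did not pass (adjusted p = 0.658). Its highest signal was on the GFP +dox array (6.31, against 5.53 in GFP -dox). An increase of up to 0.83 on the log2 scale lay within this interval.

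Slc6a4, the serotonin transporter, gave 5.97, 5.63 and 6.30 in SOX10 -dox and 6.12, 5.82 and 6.51 in SOX10 +dox. Differences within replicates were alike (0.15, 0.19 and 0.20) but small beside the spread between replicates, and the groups overlapped (0.18 ± 0.26, SE, 95% confidence interval -0.40 to 0.76), and the test was not passed. The arrays labelled replicate 1 gave 6.41 and 5.38. Slc18a2, which loads monoamines into vesicles, gave 3.89, 4.21 and 4.46 in SOX10 -dox and 4.91, 3.84 and 4.36 in SOX10 +dox. The treated arrays included both its highest and its lowest of these 6 signals (0.19 ± 0.29, SE; 95% confidence interval -0.46 to 0.83; adjusted p = 0.846).

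Maoa, the oxidase that prefers serotonin and noradrenaline, gave 11.41, 11.41 and 10.74 in SOX10 -dox (11.19 ± 0.39, SD, n = 3) and 10.71, 10.65 and 9.77 in SOX10 +dox (10.38 ± 0.53, SD, n = 3). All treated arrays lay below all untreated ones, but the nearest arrays were only 0.02 apart before rounding. The differences within replicates were -0.70, -0.76 and -0.97. The unblocked fit gave a difference of -0.81 ± 0.30 (SE between arrays, 95% confidence interval -1.48 to -0.14). It did not pass after adjustment (limma adjusted p = 0.225). With the replicate number as a block the SE was 0.19 and the limma adjusted p 0.0405, with the difference still short of 2-fold. Replicate 1 as labelled gave 10.39 and 11.13, a difference of 0.75 in the other direction.

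Maob, the oxidase that prefers phenylethylamine, gave 6.29, 5.93 and 6.50 in SOX10 -dox and 6.03, 6.38 and 6.22 in SOX10 +dox. Its difference was -0.03 ± 0.23 (SE, 95% confidence interval -0.54 to 0.48; adjusted p = 0.974), the smallest among the 10 genes. The GFP arrays, at 6.27 and 6.64, and the arrays labelled replicate 1, at 6.67 and 6.42, lay in or just above this range. The plot of differences sets the replicates of all 10 genes side by side.

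**Figure D2:**
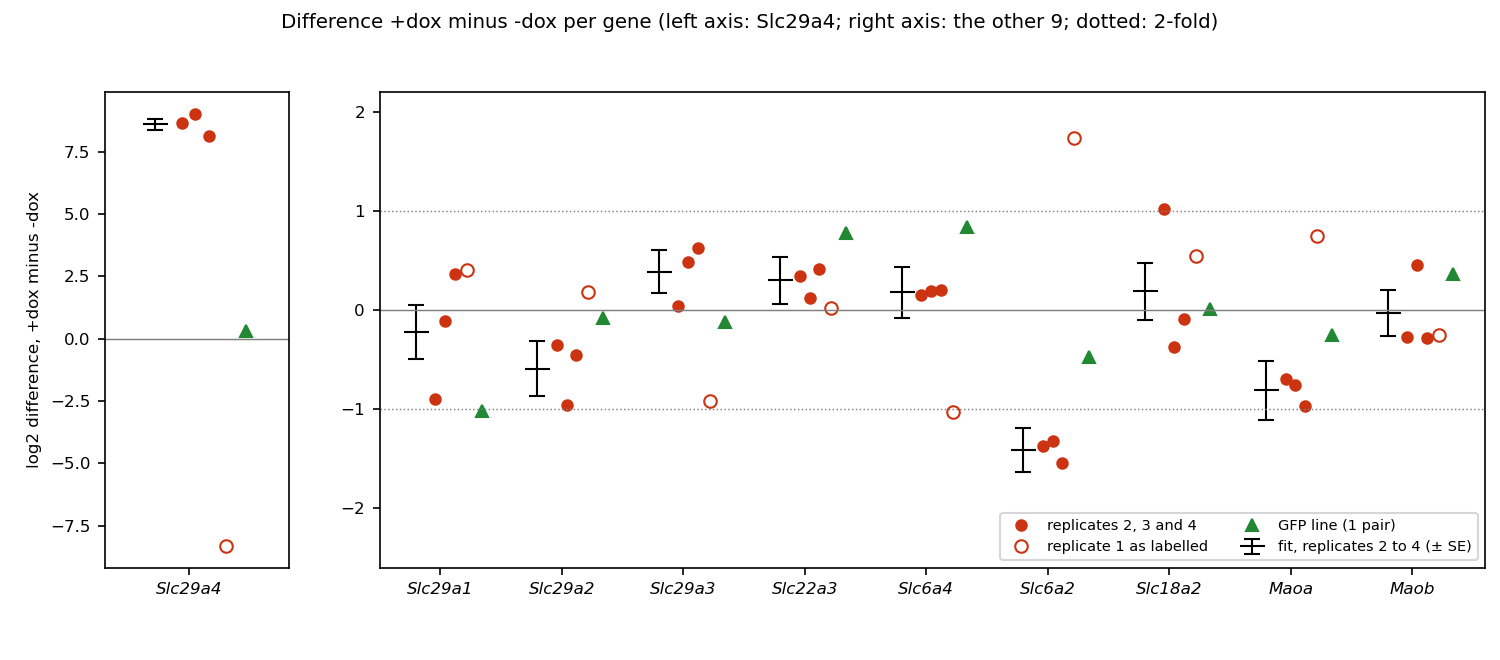
Log2 difference between +dox and -dox (vertical axes; the left one for Slc29a4, the right one for the other 9 genes) by gene (horizontal axes). Filled circles are replicates 2, 3 and 4, open circles replicate 1 as labelled, triangles the GFP pair, crossbars the fitted difference ± SE, and dotted lines 2-fold. Slc29a4 at 8.59 and Slc6a2 at -1.41 lie past 2-fold, and for both the replicate 1 pair lies on the opposite side of 0 (-8.32 and 1.74).

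Replicate 1 as labelled had a difference of the opposite sign to the fitted one in 6 of the 9 genes other than Slc29a4, beside 61.9% of all transcript clusters. With all 8 SOX10 arrays taken as labelled, limma called 0 of these 9 genes, with 0 at an unadjusted p under 0.05. It also called 0% of all transcript clusters (863 at an unadjusted p under 0.05).

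Doxycycline without the Sox10 construct was examined in the GFP line, where it also induces GFP. The test there rests on 1 array per group and assumes that these arrays vary like those of the SOX10 line. Differences of the 10 genes between GFP +dox and GFP -dox ranged from -1.02 (Slc29a1) to 0.84 (Slc6a4), with Slc22a3 at 0.78. Limma called 0 of the 10, with 1 (Slc29a1) at an unadjusted p under 0.05 and a lowest adjusted p of 0.787. Over all transcript clusters 0% were called (1458 at an unadjusted p under 0.05).

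The difference with doxycycline was then compared between the lines. For the 9 genes other than Slc29a4, the difference in the SOX10 line minus that in the GFP line ran from -0.94 (Slc6a2) to 0.81 (Slc29a1). None of the 9 were called by limma (0 at an unadjusted p under 0.05; lowest adjusted p 0.572), beside 0.384% of all transcript clusters (2097 at an unadjusted p under 0.05). Without doxycycline, SOX10 -dox differed from GFP -dox by -0.86 (Slc29a1) to 0.56 (Slc29a2) over the 10 genes. Limma called 0 of the 9 other than Slc29a4 (1 at an unadjusted p under 0.05, Slc29a1) and 0% of all transcript clusters (771 at an unadjusted p under 0.05).

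Other genes of monoamine and nucleoside handling were read from 8 lists with 95 genes, of which 85 were measured. The lists were chosen by function after the paper's table of called genes had been seen. Their shares of called genes are therefore a description, and no list test was made. In SOX10 +dox, 0 of the 85 rose, 5 (5.88%) fell and 80 did not pass the test, beside 2.26% higher and 1.24% lower among all transcript clusters. At an unadjusted limma p under 0.05, 3 were higher and 12 lower (17.6% of the 85, beside 14.8% of all transcript clusters). Their median difference was -0.04 on the log2 scale. The genes that fell were Htr2a, Adra2b, Aoc1, Alpl and Xdh.

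Htr2a and Adra2b are receptors that sense monoamines outside the cell. Of 31 measured receptors of serotonin, noradrenaline, dopamine, histamine and trace amines, 2 fell and 29 did not pass the test (median difference 0.01). Htr2a, a serotonin receptor that signals through phospholipase C, gave 11.87, 12.33 and 12.63 in SOX10 -dox and 10.33, 10.88 and 10.74 in SOX10 +dox. All treated arrays lay below the untreated ones, the nearest 1.00 apart, with a difference of -1.63 ± 0.26 (SE, 3.09-fold lower, limma adjusted p = 0.00494). Adra2b, an inhibitory adrenergic receptor, gave 8.72, 8.92 and 8.98 in SOX10 -dox and 7.13, 7.08 and 7.18 in SOX10 +dox. Its groups were 1.54 apart at their nearest, and it differed by -1.75 ± 0.21 (SE, 3.35-fold lower, adjusted p = 0.000712). On both GFP arrays Htr2a was in the range of the untreated SOX10 arrays (12.50 and 12.33), whereas Adra2b lay between the SOX10 groups (8.32 and 7.82).

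Of 8 measured enzymes that break down or conjugate monoamines, other than the monoamine oxidases, 1 fell. Aoc1, which oxidises histamine and diamines, gave 8.84, 8.96 and 10.39 in SOX10 -dox and 6.15, 6.86 and 8.28 in SOX10 +dox. Replicate 4 was the highest array in both groups, and the difference was -2.30 ± 0.52 (SE, 4.93-fold lower, adjusted p = 0.0337). This call was lost without any of SOX10 -dox replicates 2, 3 or 4 or SOX10 +dox replicates 2 or 3 (adjusted p 0.0528, 0.0686, 0.106, 0.130 and 0.134) and held without SOX10 +dox replicate 4 (adjusted p = 0.00417). Within replicates 2, 3 and 4 the differences were -2.69, -2.11 and -2.11, and with the replicate number as a block the limma fit gave an SE of 0.21 and an adjusted p of 3.39e-04. Aldh2, the mitochondrial dehydrogenase that takes over aldehydes made by the monoamine oxidases, had means of 12.10 ± 0.06 in SOX10 -dox and 11.11 ± 0.40 in SOX10 +dox (SD, n = 3 each). Its limma adjusted p was 0.0484, but the difference was just short of 2-fold, so it was not called.

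Nucleosides outside the cell are formed by ectoenzymes, and inside it they are salvaged or broken down, with uric acid formed from purines only. Of 9 measured cell surface enzymes that act in the breakdown of nucleotides towards nucleosides, not all of them at the last step, 1 fell. Alpl, tissue-nonspecific alkaline phosphatase, gave 11.22, 10.72 and 11.25 in SOX10 -dox and 9.02, 8.97 and 8.59 in SOX10 +dox. Its groups were 1.70 apart, with a difference of -2.20 ± 0.24 (SE, 4.61-fold lower, limma adjusted p = 0.000428). Nt5e, the ectoenzyme that makes adenosine from AMP, was named after its values were seen because its GFP pair differed by -1.66; in the SOX10 line it differed by -0.39 ± 0.28 (SE, adjusted p = 0.597).

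Of 16 measured intracellular enzymes of nucleoside salvage and breakdown, 1 fell. Xdh, which forms uric acid in purine breakdown, gave 11.70, 11.72 and 11.69 in SOX10 -dox and 10.26, 10.39 and 9.89 in SOX10 +dox. The untreated arrays were almost equal, and the difference was -1.52 ± 0.22 (SE, 2.87-fold lower, limma adjusted p = 0.00268). On the GFP arrays Xdh was 11.51 and 11.36, above every treated SOX10 array of replicates 2 to 4.

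Replicate 1 as labelled ran opposite for all 5 genes that fell, with differences of 1.14 (Htr2a), 1.39 (Adra2b), 1.55 (Aoc1), 1.59 (Alpl) and 1.29 (Xdh). In the GFP line their differences were -0.18, -0.50, -0.03, -0.70 and -0.14 in the same order. The differences in the SOX10 line minus those in the GFP line were -1.45, -1.25, -2.27, -1.51 and -1.38. With 1 GFP array per group, the interaction test called none of the 5 (limma adjusted p 0.426, 0.384, 0.556, 0.358 and 0.361), and 4 of them (all except Aoc1) had an unadjusted p under 0.05.

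**Figure D3:**
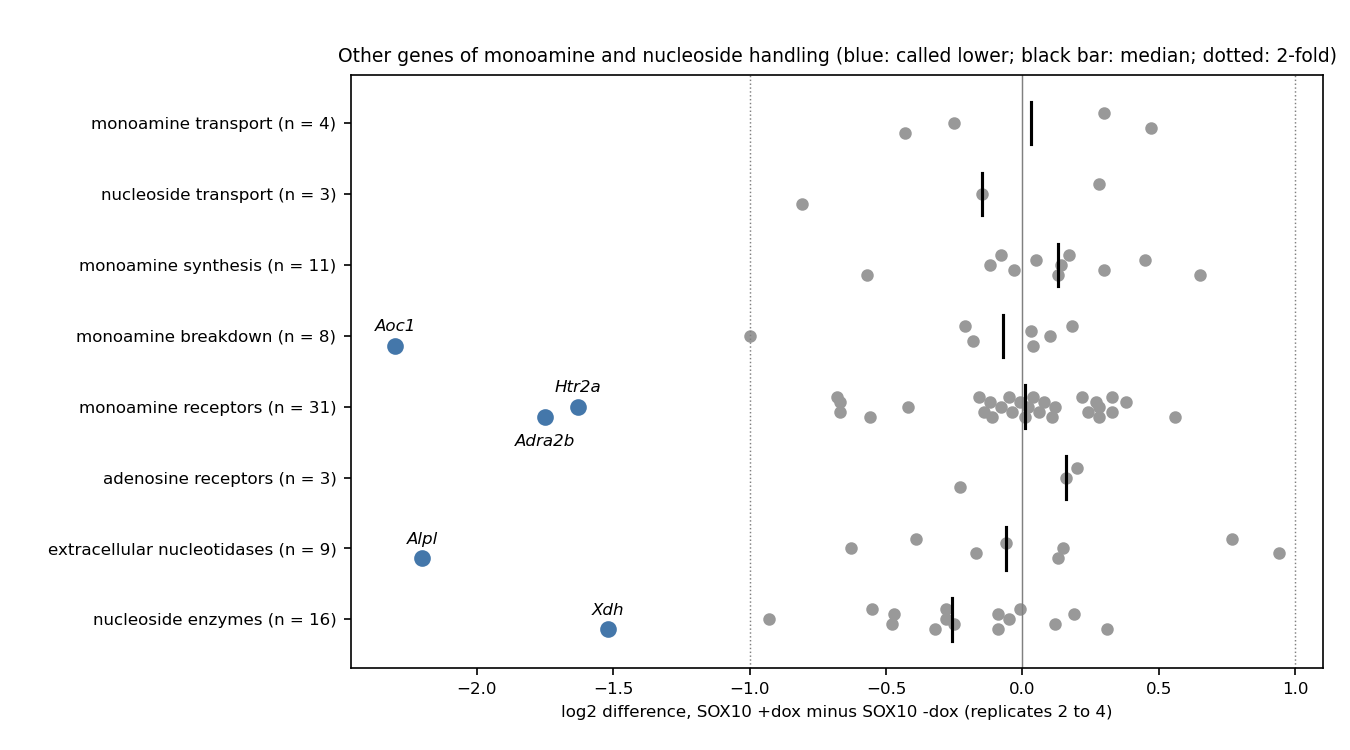
Log2 difference between SOX10 +dox and SOX10 -dox on replicates 2 to 4 (horizontal axis) for the 85 measured genes of 8 lists (rows). Points are genes, blue points those called lower, black bars the median of each list and dotted lines 2-fold. The 5 genes called lower, from Xdh at -1.52 to Aoc1 at -2.30, lie past 2-fold, and the other 80 lie within 2-fold.

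The remaining lists held no called gene. Of the other transporters of monoamines and organic cations, Slc6a3, Slc18a1, Slc22a2 and Slc47a1 had differences of -0.25, 0.30, 0.47 and -0.43. Of the other transporters of nucleosides and nucleotides, Slc28a1, Slc28a3 and Slc17a9, which loads ATP into vesicles, had differences of 0.28, -0.15 and -0.81 (adjusted p of Slc17a9 0.122). The adenosine receptors Adora1, Adora2a and Adora2b differed by 0.20, 0.16 and -0.23. The 11 measured enzymes that make monoamines or their cofactor tetrahydrobiopterin ranged from -0.57 (Spr) to 0.65 (Tph2), with a median of 0.13.

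The genes whose pattern was most like that of Slc29a4 were found as those with the smallest root mean square difference between log2 profiles, each centred on its own mean over the 10 arrays. Among 15036 other named genes they were Enpp2, which makes lysophosphatidic acid (0.51), Erbb3, the neuregulin receptor of glia (0.66), Cmtm5 (0.75), Apod, a lipid carrier (0.94), and Sox10 itself (0.95). Differences between SOX10 +dox and SOX10 -dox were 8.50, 7.34, 7.16, 7.09 and 6.55 in that order. Replicate 1 as labelled gave -9.05, -7.85, -6.48, -5.39 and -6.16. All 10 arrays, replicate 1 among them, were used to match the profiles. The similar differences and the shared sign of replicate 1 are therefore part of the selection.

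For Slc6a2 the nearest profiles were those of Jph2, a junctional membrane protein (0.20), Htr2a (0.21), Orai2, a calcium channel subunit (0.22), Vegfa, the vascular growth factor (0.22), and Gdf6, a BMP family ligand (0.24). Their differences between SOX10 +dox and SOX10 -dox were -1.38, -1.63, -1.40, -1.40 and -1.58. On the arrays labelled replicate 1 the differences were 1.70, 1.14, 1.63, 1.38 and 1.61, and on the GFP arrays they lay between -0.63 and 0.05. These arrays were all used to match the profiles, so the similar differences, the sign of replicate 1 and the GFP values are part of the selection. Likeness here is a description over 10 arrays.

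**Figure D4:**
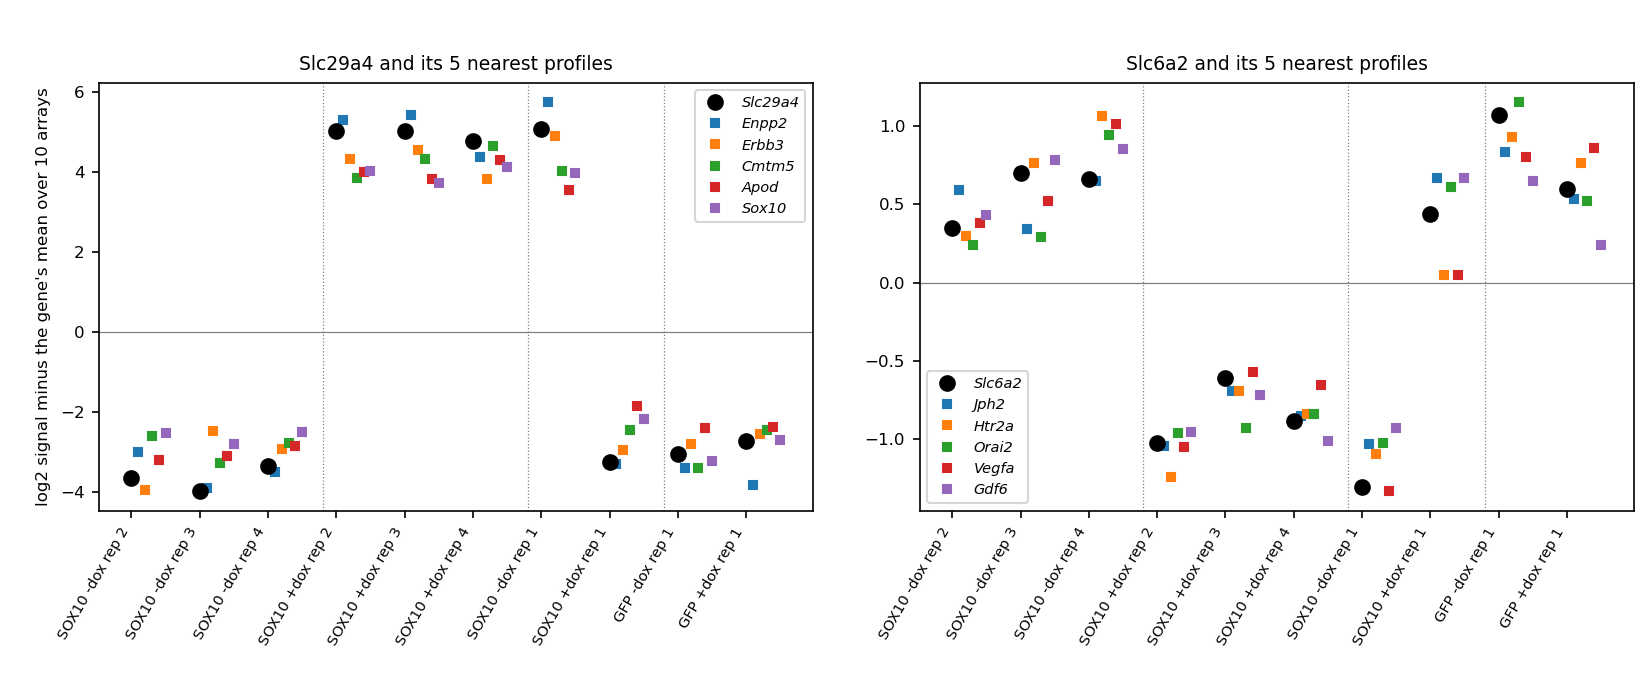
Log2 signal minus the gene's mean over 10 arrays (vertical axes) on each array (horizontal axes) for Slc29a4 (left) and Slc6a2 (right), each with its 5 nearest profiles. Black circles are the reference gene and coloured squares the others, and dotted lines separate the groups. For Slc29a4 and its neighbours, the array labelled SOX10 -dox replicate 1 stands with the SOX10 +dox arrays, and that labelled SOX10 +dox replicate 1 with the untreated and GFP arrays.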

How the data were processed

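Total RNA of JUG2 cells was measured on 10 Clariom S arrays. The authors deposited log2 signals per transcript cluster. They worked with the Transcriptome Analysis Console; the summarisation and normalisation of probes are not given in the sources at hand. Of 24834 probe sets, 1646 controls were left out. Gene names came from the platform annotation (15049 clusters with a symbol). No value column was left unassigned.

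A limma model (version 3.58.1, R 4.3.3) with 4 groups was fitted to 8 arrays, SOX10 replicates 2 to 4 and the GFP arrays, and p-values were adjusted by Benjamini-Hochberg over 23188 clusters. The exclusion of replicate 1 and all members and gene lists were chosen with earlier results of these data known. Genes were named by rule: all 10 members, called genes of each list (at most 4 by size), the 5 nearest profiles of Slc29a4 and Slc6a2, and Sox10. Members of the small transporter and adenosine receptor lists were added in full, and Aldh2, Nt5e, Spr and Tph2 after their values were seen. The fit was tested on simulated data.

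Same-numbered SOX10 arrays of the independent experiments had positive correlations of deviations (0.194, 0.15 and 0.411 for replicates 2, 3 and 4). The numbers were taken as pairs in a fit beside the unblocked main one. Arrays of different numbers correlated between -0.282 and 0.171. The highest of these, SOX10 -dox replicate 2 with SOX10 +dox replicate 3, lay above the 0.15 of replicate 3. Only replicate 4 stood clear as a pair, and these values do not tell replicates 2 and 3 apart. Deviations from a mean of 3 arrays cancel out, which forces part of the negative values. Alternatives were all arrays as labelled, a replicate block, the SOX10 arrays alone, quantile normalisation, median centring, array weights, an intensity trend, a filter on dim clusters, an adjusted p under 0.01 and leaving out each array. Leaving out replicate 4 of both SOX10 groups was added after seeing the data. The number of arrays and the spread between them limit the precision.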

Additional observations from a re-analysis of the deposited data

Results flagged for a closer look

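With all 4 arrays of each SOX10 group as labelled, 32 groups (16 genes) were examined for an array far from the other 3, by the gap to its nearest neighbour divided by the group's range and set against Dixon's critical value. Chance alone puts about 1 in 20 groups above it, and 7 lay above it here, all through replicate 1. The genes concerned are Sox10, Slc29a4 and genes called on replicates 2 to 4. In such genes an array of opposite order tends to lie away from the other 3, so this is a description and no test. For Sox10 these were the arrays labelled SOX10 -dox (12.90) and SOX10 +dox (6.74), and for Slc29a4 the same arrays (13.20 and 4.88). For Adra2b they were again both (6.67 and 8.06), and for Xdh the array labelled SOX10 -dox (10.40). The cause was not tested.

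The difference with doxycycline was larger in the SOX10 line than in the GFP line by 6.04 for Sox10. Sox10 was overexpressed by design and its values set the replicate 1 arrays apart, so no test is given. The GFP line had 1 array per group. For Slc29a4 the same difference between the lines was 8.28, given with no test because its values chose the family.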

How the results depend on the processing

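Of the alternatives, taking all 8 SOX10 arrays as labelled changed most. It left 0 transcript clusters called higher and 0 lower (525 and 287 on replicates 2 to 4), 0 pathway genes called lower and 0 clusters called between the lines (89 otherwise), took the difference of Slc29a4 from 8.59 to 4.36 and that of Slc6a4 from 0.18 to -0.12, and ended the calls of Slc6a2, Htr2a, Adra2b, Aoc1, Alpl and Xdh. An adjusted p under 0.01 left 308 higher and 113 lower and ended the call of Aoc1. Leaving out each array in turn gave 333 to 639 higher, 140 to 324 lower and 43 to 177 called between the lines. Slc29a1 ranged from -0.39 to 0.01, Slc18a2 from -0.08 to 0.45 and Maob from -0.19 to 0.10, none of them called. Slc29a1 was at 0.01, Slc18a2 at -0.08 and Maob at 0.06 without SOX10 +dox replicate 2, and Maob was at 0.10 without SOX10 -dox replicate 4. Array weights put Maob at 0.05. Leaving out replicate 4 of both SOX10 groups, an alternative chosen after seeing the data, gave 352 clusters lower, 196 between the lines and 4 between SOX10 -dox and GFP -dox (0 otherwise), with Slc29a1 at -0.51 and Maob at 0.10.

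With the replicate block, Slc6a2 stayed at -1.41 (adjusted p = 0.00278), 637 clusters were higher and 375 lower, and no call of a named gene changed. Over the single genes and all alternatives, 216 differences kept their direction and side of the threshold, 12 lost their call, 7 changed sign and 1 (Slc29a4, untested) moved. Part of the 216 could not have come out otherwise. The SOX10 arrays alone repeat the main fit for this contrast. The replicate block, intensity trend, dim filter and stricter adjusted p leave each log2 difference as it was. The stricter adjusted p also cannot alter a gene that was not called. This tally is therefore no measure of robustness. Each member has 1 transcript cluster, so other clusters of the same gene could not be tried. Clusters under the level of 6.77 were left out in another alternative, which kept 12581. The arrays give no probe-level background, and 3 against 3 arrays limit what small differences can be shown.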

Other observations

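Mtap, which salvages adenine from methylthioadenosine, was named only through the supplementary gene table and stands outside the counts above. Its log2 signal was 13.66, 13.50 and 14.01 in SOX10 -dox and 12.60, 12.71 and 13.08 in SOX10 +dox. The groups did not overlap, and the difference of -0.93 ± 0.24 (SE) did not pass the test (limma adjusted p = 0.0583). Replicate 1 as labelled differed by 0.72 in the other direction.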
